A study of Homo sapiens with 4 samples.

Results

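Polycomb repressive complex 1 (PRC1) is a histone H2A ubiquitin ligase, and its subunits were followed here in HCT116 cells after knockdown of TET1. HCT116 is an established human colorectal cancer cell line. TET1 encodes an enzyme that oxidises methylated cytosine in DNA. The 9 PRC1 genes listed were RING1, RNF2, BMI1, PCGF3, PCGF5, PCGF6, CBX8, PHC2 and KDM2B, and every probe set annotated to exactly 1 of these symbols was taken. That gave 17 probe sets of 6 genes, out of 41091 probe sets with 1 gene symbol (19775 genes) and 54675 in all. PCGF3 and PCGF5 had 5 probe sets each, PHC2 had 3, RING1 had 2, and PCGF6 and KDM2B had 1 each. The 1 probe set annotated to BMI1 also carries the read-through gene COMMD3-BMI1 and so was not a member. RNF2 and CBX8 were not analysed here.

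The tested cells received an siRNA against TET1 by lipid transfection (2 arrays), and the cells they were set against received a control siRNA in the same way (2 arrays). All 4 samples are HCT116, and the design text describes the arrays of a group as biological duplicates. The labels name 1 TET1 siRNA group, and the time after transfection is not stated in them. Effects of losing TET1 and of the siRNA itself therefore cannot be told apart.

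PRC1 is built around a RING1 or RNF2 subunit paired with 1 of the PCGF proteins, and this pair places ubiquitin on a lysine near the C-terminus of histone H2A. Canonical complexes hold a CBX protein, which reads the methyl mark that Polycomb repressive complex 2 (PRC2) puts on histone H3, and a PHC protein. Variant complexes hold RYBP or its relative YAF2 in place of CBX. They include the KDM2B complex, which binds unmethylated CpG-rich DNA, and the PCGF3, PCGF5 and PCGF6 complexes. BMI1, also called PCGF4, is a PCGF protein of canonical PRC1.

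The promoters of 2 members are shown because TET1 and KDM2B both carry a CXXC domain, a zinc finger with affinity for CpG-rich DNA. PCGF3 is the member with the largest fall, and RING1 the member whose probe sets both read higher. The sequences are RefSeq's, on GRCh38.p14, plus strand, and cover the 250 bases before the gene start, at chr4:705582-705831 for PCGF3 and chr6:33208250-33208499 for RING1. Capitals mark each CG, which reads the same on both strands and does not overlap itself.
PCGF3: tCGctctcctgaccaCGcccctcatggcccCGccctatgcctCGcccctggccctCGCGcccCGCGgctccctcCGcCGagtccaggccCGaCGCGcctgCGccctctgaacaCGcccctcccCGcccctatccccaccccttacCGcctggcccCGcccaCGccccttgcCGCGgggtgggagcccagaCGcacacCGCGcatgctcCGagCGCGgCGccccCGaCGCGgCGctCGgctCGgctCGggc
RING1: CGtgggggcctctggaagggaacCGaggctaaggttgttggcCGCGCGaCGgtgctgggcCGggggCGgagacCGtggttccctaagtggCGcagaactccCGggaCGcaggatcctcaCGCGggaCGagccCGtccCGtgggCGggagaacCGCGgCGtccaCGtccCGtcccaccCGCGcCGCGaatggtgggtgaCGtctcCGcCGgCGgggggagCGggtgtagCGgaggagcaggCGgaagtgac
The PCGF3 window holds 35 CG and the RING1 window 34, against a median of 11 over 35116 such windows of all genes. At least 35 CG occur in 5.8% of all windows and at least 34 in 6.84%. Among the 16 windows listed for 8 of the PRC1 genes the number ran from 2, at 1 of the 4 starts of PCGF5, to 54, at 1 of the starts of BMI1. Such numbers are not particular to PCGF3 and RING1. RNF2 had 34, and 1 start each of KDM2B, BMI1 and PHC2 had 34, 35 and 36. Lower numbers stood at PCGF6 (19) and at the other starts of KDM2B (11 to 32) and PHC2 (21). No DNA methylation or binding was measured in this series.

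Each array gave a signal per probe set on a linear scale of arbitrary units, scaled to an equal trimmed mean (100.01). Median signals were 13.9 and 14.4 with TET1 siRNA and 14.3 and 15.5 with control siRNA. The TET1 transcript checked the labels: its brighter probe set (228906_at) gave 14.6 and 15 with TET1 siRNA, against 58.1 and 59.6 with control siRNA. That difference passed (log2 difference -1.28, SE 0.19, limma adjusted p = 0.00127), and the dimmer probe set (214862_x_at), with 6.0 and 8.9 against 18.2 and 35.5, did not (-0.84, adjusted p = 0.0509). Of 8 colorectal epithelial markers 5 lay above the filter on dim probe sets, with EPCAM at 3134 and 3095 in TET1 siRNA cells and 2870 and 2742 in control cells. KRT8, KRT18 and KRT19 also read higher on both TET1 siRNA arrays, whereas CDH1, the epithelial cadherin, read lower, with 474.8 and 394.0 against 925.1 and 1059.0 in control cells. CDX1, CDX2 and LGR5 did not exceed 15.3 on any array. Fibroblast markers summed to 386.0 and 491.6 with TET1 siRNA and 353.6 and 312.4 with control siRNA, most of it COL1A1. Endothelial markers summed to 22.8 to 34.5 and 29.0 to 35.1, and leukocyte markers to 33.1 to 36.3 and 20.7 to 37.8, in the same order. The part of these markers in the results below was not tested.

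**Figure D1:**
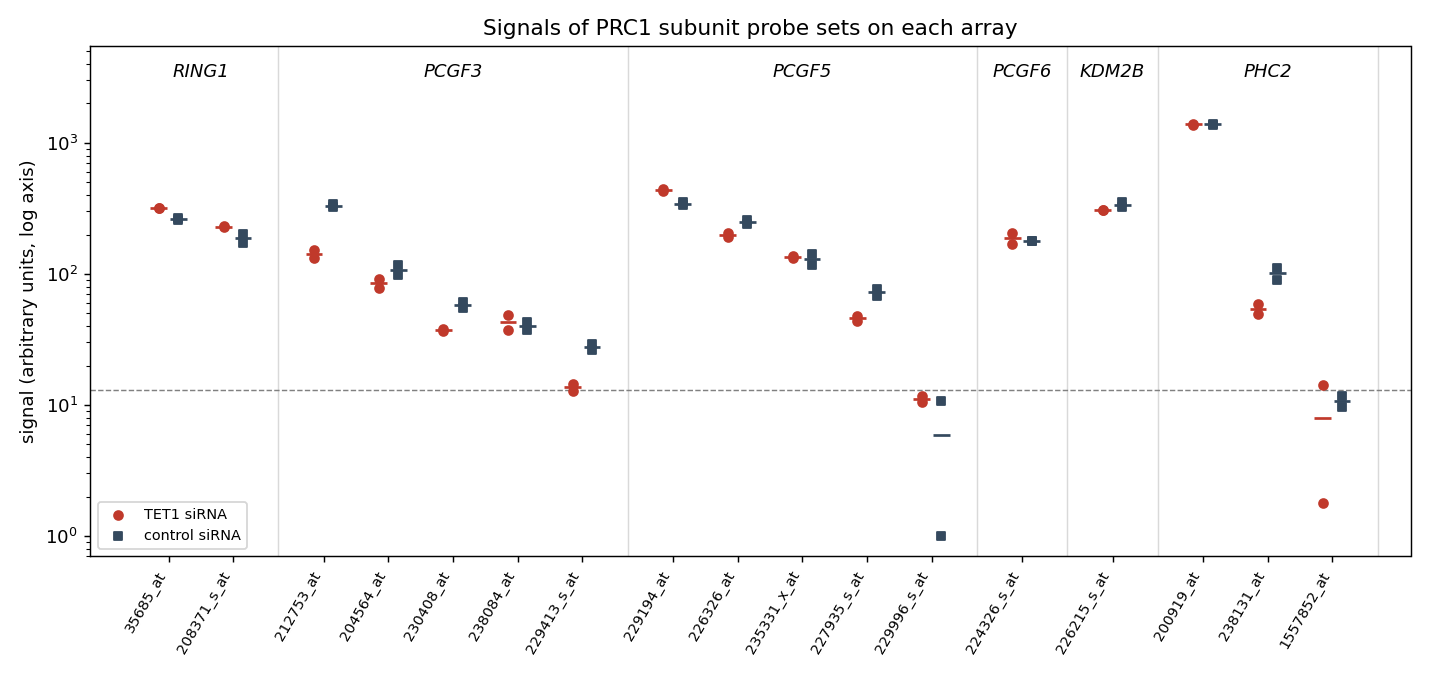
Signal of each of the 17 PRC1 probe sets on the 4 arrays (arbitrary units, log axis), with TET1 siRNA as red circles left of control siRNA as dark squares. Short lines are group means, and the dashed line is the filter on dim probe sets. PCGF3 212753_at falls to 142.4 with TET1 siRNA against 332.15 with control siRNA, while PHC2 200919_at stays near 1386 in both groups.

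The PRC1 subunits did not move together after TET1 siRNA. PCGF3 fell to 42.9% of its control signal by 1 probe set, a PHC2 probe set fell and a PCGF5 probe set rose, and 12 of the 15 tested probe sets did not pass. Tests used limma on log2(signal + 16), with each probe set fitted by itself and p adjusted over all 27306 probe sets above the filter (mean log2 value above 4.86, a signal of 13.1). The background over all these probe sets was 7.76% higher and 8.31% lower, against 1 higher and 2 lower of 15 here. The median log2 difference was -0.12 over the 15, of which 5 are of PCGF3 and 4 of PCGF5, and -0.01 over all tested probe sets. With each gene taken once, by its brightest probe set, the medians were 0.03 over the 6 members and 0.01 over all genes. In 11 of the 15 both TET1 siRNA arrays lay on the same side of both control arrays, 3 above and 8 below. Over all tested probe sets the corresponding share, both directions together, was 56.1%. Of the 8 below, 4 were of PCGF3 and 2 of PCGF5, and of the 3 above, 2 were of RING1. These are therefore not counts of separate genes. The other 2 member probe sets, 1 of PCGF5 and 1 of PHC2, lay below the filter and were not tested. The arrays read bulk RNA, so fewer cells expressing a gene and less RNA per cell cannot be told apart.

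**Figure D2:**
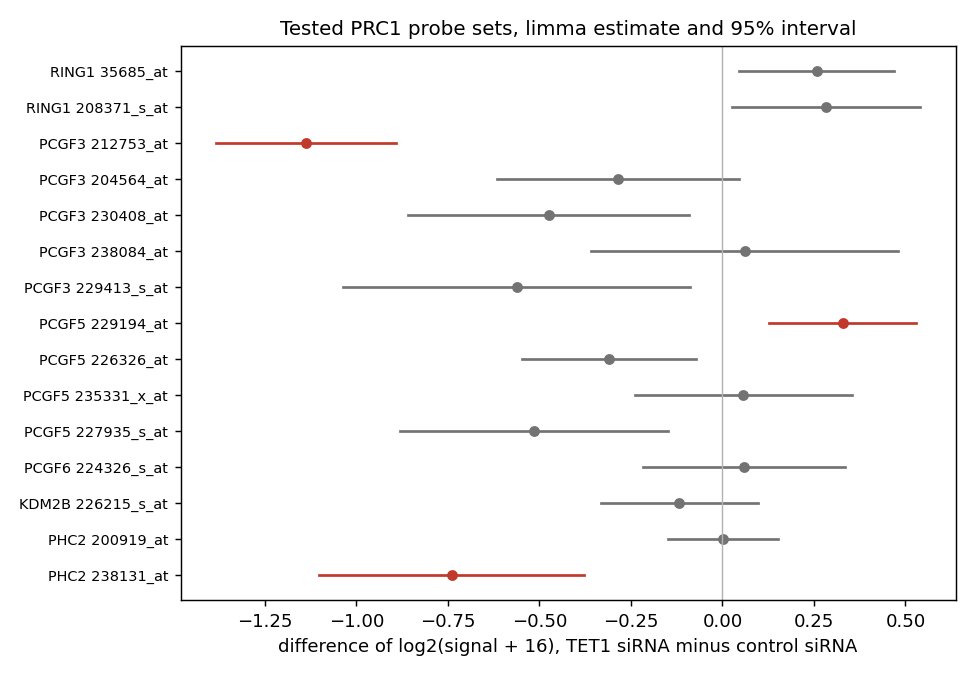
Difference of log2(signal + 16), TET1 siRNA minus control siRNA, for the 15 tested PRC1 probe sets, with limma's 95% interval as a line. Red marks adjusted p below 0.05: PCGF3 212753_at (-1.14), PHC2 238131_at (-0.74) and PCGF5 229194_at (0.33).

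RING1, a catalytic RING subunit and paralogue of RNF2, was the member whose probe sets read most alike. Probe set 35685_at gave 316.8 and 317.8 with TET1 siRNA, against 265.3 and 260.3 with control siRNA. The second, 208371_s_at, gave 226.8 and 233.3 with TET1 siRNA, against 202.6 and 171.1 with control siRNA. In both, each TET1 siRNA array lay above each control array. Neither difference passed: it was 0.26 (95% interval 0.05 to 0.47, limma adjusted p = 0.0974) for 35685_at and 0.28 (0.03 to 0.54, adjusted p = 0.132) for 208371_s_at. The effects at the 2 probe sets differed by -0.03, with an interval of -0.33 to 0.28.

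PCGF3 is a RING finger partner of RING1 and RNF2 in a variant complex, known in mouse embryonic stem cells for its part in placing H2A ubiquitin during X inactivation. It is the member with the largest change and also the one whose probe sets disagree most. Its brightest probe set, 212753_at, gave 133.4 and 151.4 with TET1 siRNA, against 342.5 and 321.8 with control siRNA. The groups lie far apart: the means were 142.4 ± 12.7 and 332.15 ± 14.6 (SD, n = 2 each), so 42.9% of the control signal remained. The fall was 1.14 in log2(signal + 16), with SE 0.11 and a limma adjusted p of 1.09e-04. That is the 159th lowest of the 27306 differences.

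The other 4 PCGF3 probe sets did not pass. Probe set 229413_s_at gave 12.8 and 14.5 with TET1 siRNA, against 26.2 and 29.4 with control siRNA, which is 49.1% of control but close to the filter (difference -0.56, limma adjusted p = 0.105). With 230408_at the signals were 38 and 36.5, against 60.8 and 55.3 in control cells, or 64.2% of control (-0.47, adjusted p = 0.0916). For 204564_at they were 78.8 and 91.2, against 117.0 and 97.5 in control cells, or 79.3% of control (-0.29, adjusted p = 0.24). In these 3, as in 212753_at, both TET1 siRNA arrays read below both control arrays. The exception was 238084_at, with overlapping groups: 37.5 and 48.3 with TET1 siRNA, against 37.3 and 43.3 with control siRNA (0.06, 95% interval -0.36 to 0.48, adjusted p = 0.876). So 4 of 5 PCGF3 probe sets, 1 of them past the test, read lower on both arrays and 1 did not. Their signals lay between 42.9% and 106% of control. Groups that do not overlap, in either direction, were found in 56.1% of all tested probe sets. The 5 probe sets were read on the same arrays and are not replicates of each other.

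Whether these probe sets differ in their response was tested on the log2 difference between the brightest and each other probe set of a gene, an analysis added after the data were seen. Limma was run on 10963 such pairs from all genes, of which 1.71% passed. For PCGF3, 212753_at minus 238084_at was 1.48 and 1.38 with TET1 siRNA, against 2.75 and 2.51 with control siRNA. The response of 212753_at was lower by -1.20 (95% interval -1.68 to -0.72, limma adjusted p = 0.0251). Against 204564_at the same quantity was 0.66 and 0.64, against 1.43 and 1.57 in control cells, a difference of responses of -0.85 (adjusted p = 0.0354). Both calls ended when any 1 array was left out, with adjusted p from 0.0546 to 0.198, with a pseudocount of 1 (0.0692 and 0.0682), with no variance trend (0.12 and 0.146) and with no moderation (0.405 and 0.392). Against 230408_at (-0.66, interval -1.12 to -0.20, adjusted p = 0.159) and 229413_s_at (-0.58, interval -1.14 to -0.01, adjusted p = 0.329) the responses were not told apart. With a pseudocount of 64 both pairs passed (-0.67, limma adjusted p = 0.0151, and -0.70, adjusted p = 0.0113). With a pseudocount of 1 neither did (-0.59, adjusted p = 0.374, and -0.24, adjusted p = 0.867). A larger pseudocount shrinks changes of dim probe sets most: 229413_s_at itself was at -0.98 with 1 and at -0.24 with 64. The exact permutation test (two-sided, 2 against 2 arrays) gave p = 0.333 for each of the 4 pairs, the smallest it can give.

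**Figure D3:**
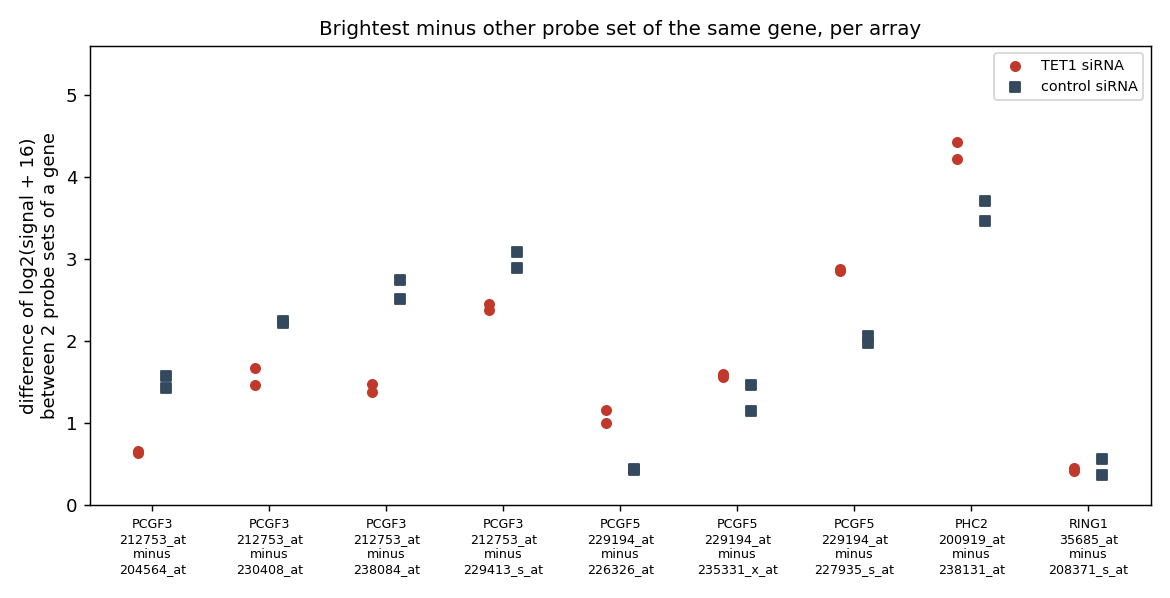
Difference of log2(signal + 16) between the brightest and another probe set of the same gene on each array, with TET1 siRNA as red circles left of control siRNA as dark squares. Equal heights in the 2 groups would mean equal responses: the PCGF3 pairs read lower with TET1 siRNA (0.66 and 0.64 against 1.43 and 1.57 for 204564_at), the PCGF5 pair with 226326_at reads higher, and the RING1 pair overlaps.

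PCGF5, the close relative of PCGF3 found in the same kind of variant complex, had probe sets that read in both directions. Its brightest, 229194_at, gave 443.1 and 426.3 with TET1 siRNA, against 351.8 and 334.1 with control siRNA, and rose by 0.33 (SE 0.091, limma adjusted p = 0.0316). Probe set 226326_at read the other way, with 189.8 and 205.4 against 256.6 and 240.7 in control cells (-0.31, 95% interval -0.55 to -0.07, adjusted p = 0.0784). So did 227935_s_at, with 47.6 and 44.0 against 77.1 and 67.7 in control cells (-0.52, interval -0.88 to -0.15, adjusted p = 0.0587). In these 3 the groups do not overlap. In 235331_x_at they do, with 136.0 and 133.5 against 116.7 and 142.3 (0.06, adjusted p = 0.833). The fifth, 229996_s_at, was below the filter, with 11.8 and 10.5 against 10.8 and 1.0.

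Between 229194_at and 226326_at the responses differed by 0.64 (95% interval 0.34 to 0.94, limma adjusted p = 0.0432). Between 229194_at and 227935_s_at they differed by 0.84 (0.42 to 1.27, adjusted p = 0.0551). This second pair passed with a pseudocount of 64 (0.61, adjusted p = 0.0204) and not with 1 (0.99, adjusted p = 0.0779). The PCGF5 rise did not pass when any 1 array was left out (log2 differences 0.29 to 0.36, adjusted p 0.0619 to 0.148), with no filter (0.0676) or with no variance trend (0.146). With an upper-quartile filter 226326_at passed as lower (adjusted p = 0.049). The first of the 2 probe set differences was likewise lost with any 1 array left out (adjusted p 0.101 to 0.26), with a pseudocount of 1 (0.0677), with no filter (0.0542), with no variance trend (0.198) and with no moderation (0.436). No direction for PCGF5 as a gene can be given from these values.

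PCGF6, the PCGF protein of the complex with MGA, MAX, E2F6 and L3MBTL2, had overlapping groups in its only probe set. It gave 168.7 and 206.7 with TET1 siRNA, against 177.6 and 179.7 with control siRNA (0.06, 95% interval -0.22 to 0.33, limma adjusted p = 0.811). KDM2B, a histone demethylase whose CXXC domain brings its complex to CpG islands, gave 307.3 and 309.7 with TET1 siRNA, against 321.5 and 351.4 with control siRNA. Its groups do not overlap, but the difference of -0.12 (interval -0.33 to 0.10, adjusted p = 0.472) did not pass.

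PHC2 encodes a Polyhomeotic protein, whose SAM domain links PRC1 particles into larger assemblies. Its brightest probe set, 200919_at, was nearly the same on every array: 1393.2 and 1379.6 with TET1 siRNA, against 1391.4 and 1378.6 with control siRNA. The log2 difference was 0.0014, with a 95% interval of -0.15 to 0.15 (limma adjusted p = 0.993). The dimmer 238131_at fell by 0.74 (SE 0.16, adjusted p = 0.0113), with 49.4 and 58.6 against 111.7 and 90.6 in control cells, or 53.4% of control. This call was lost without TET1 siRNA replicate 1 (adjusted p = 0.0598) and without control siRNA replicate 1 (0.084), with no filter (0.0582) and with no variance trend (0.0629). The responses of these 2 probe sets differed by 0.74 (interval 0.32 to 1.16), which did not pass (adjusted p = 0.0831). The third, 1557852_at, was below the filter with 1.8 and 14.1 against 9.6 and 11.8 in control cells.

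For PCGF3, PCGF5 and PHC2 the differences spanned a wide range among genes with as many tested probe sets. Those genes were not matched on signal, and dim probe sets carry larger errors (SE 0.19 for PCGF3 238084_at, 0.07 for the bright PHC2 200919_at). The log2 differences of the 5 tested PCGF3 probe sets spanned 1.20, more than in 96.6% of 298 genes with 5. The 4 of PCGF5 spanned 0.84, more than in 90.8% of 687 genes, and the 2 of PHC2 spanned 0.74, more than in 96.2% of 3382 genes. The 2 of RING1 spanned 0.03, more than in 8.2% of the same 3382. A mix of passing and not passing probe sets was itself frequent: of 6222 genes with 2 or more tested probe sets, 362 had all of them pass in 1 direction, 1583 had some pass and all those in 1 direction, 30 had opposite calls and 4247 had none.

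Taking each gene once, by its brightest probe set, PCGF3 fell, PCGF5 rose and RING1, PCGF6, KDM2B and PHC2 did not pass. Over all 12389 genes tested in this way, 11.2% were higher and 10.6% lower. The choice of probe set bears on these calls. PHC2 was called lower only by its dimmer tested probe set, which taking the brightest leaves out. With the probe sets of a gene averaged, PCGF3 still fell, by 0.48 (limma adjusted p = 0.025) in place of 1.14. No other member gene passed in that setting, with PCGF5 at -0.02 (adjusted p = 0.93). Of the genes named below as past the test, PHC3 (limma adjusted p = 0.427 when averaged), SKP1 (0.0737), DCAF7 (0.258), MYSM1 (0.528), PHF19 (0.122), AEBP2 (0.959) and CDKN2A (0.154) likewise did not pass when their probe sets were averaged. All these means take in any probe set of the gene below the filter, which was not tested by itself. AEBP2 has 1 tested probe set, with a difference of 0.30, and its mean over all its probe sets was at -0.01.

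Partners of PRC1 outside the members were read in the same way, in lists written with earlier results of these data known. Over all genes tested 21.9% passed in either direction. The share was 12.5% for other canonical PRC1 subunits and 22.7% for other variant ones. It was 9.09% for H2A deubiquitination, 53.8% for PRC2 and 14.3% for known Polycomb targets. No list was tested as a set. Of 8 other canonical subunits tested 1 rose and none fell (median log2 difference -0.08, against 0.01 over all genes). The one that rose was PHC3, a Polyhomeotic paralogue of PHC2, with 413.8 and 424.9 with TET1 siRNA, against 319.4 and 334.5 with control siRNA (0.34, limma adjusted p = 0.0185, by 1 of its 4 tested probe sets). It did not pass without either TET1 siRNA array or without control siRNA replicate 1. CBX2, CBX6, CBX7, PHC1, PCGF2, SCMH1 and SCML2 did not pass, with differences from -0.26 to -0.03.

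Of 22 other variant PRC1 subunits tested 2 rose and 3 fell, with a median of -0.03. WDR5, a WD40 scaffold protein shared with histone H3 lysine 4 methyltransferases and found in the PCGF6 complex, gave 66.8 and 58.7 with TET1 siRNA, against 159.8 and 158.8 with control siRNA. It had a log2 difference of -1.16 (SE 0.14, limma adjusted p = 1.74e-04), by 1 of its 2 probe sets. TFDP1, the dimer partner of E2F proteins, fell by 0.44 (adjusted p = 0.00262) and passed in all 3 of its probe sets. DCAF7, a WD40 protein found with PCGF3 and PCGF5, fell by 0.41 (adjusted p = 0.00296), in 4 of 5 probe sets.

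The 2 variant subunits that rose were CSNK2B and SKP1. CSNK2B, the regulatory subunit of casein kinase 2, which joins the PCGF3 and PCGF5 complexes, rose by 0.37 (limma adjusted p = 0.00346). SKP1, an adaptor that joins the KDM2B complex and F-box ubiquitin ligases, rose by 0.25 (adjusted p = 0.00825, in 2 of 4 probe sets). With either TET1 siRNA array left out 1 rise was counted in this list, and each fit with 1 array left out counted 3 falls. SKP1 did not pass with no filter (adjusted p = 0.0637), and without probe sets ending in _x_at or _s_at it was at 0.08 (adjusted p = 0.798). In that last setting the list counted 0 rises and 5 falls, and CSNK2B had no probe set left. RYBP (0.11), YAF2 (0.02), PCGF1 (0.01), BCOR (-0.07), MGA (-0.03) and L3MBTL2 (-0.18) were among the 17 that did not pass.

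Of 11 tested genes of H2A deubiquitination, the reverse reaction of PRC1, 1 rose and none fell. MYSM1, an H2A deubiquitinase, gave 260.8 and 294.5 with TET1 siRNA, against 201.2 and 208.0 with control siRNA (0.41, limma adjusted p = 0.0184). The median was 0.13, and the MYSM1 call held in 1 of the 4 fits with 1 array left out, that without TET1 siRNA replicate 1. USP16 (0.10) and ASXL1 (0.22), itself a partner of the deubiquitinase BAP1, did not pass.

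PRC2 subunits and a short list of known Polycomb targets complete the comparison. Of 13 genes listed for PRC2, 6 fell and 1 rose, with a median of -0.15. EZH2, the methyltransferase, had a log2 difference of -0.65, and the histone chaperone RBBP4 of -0.65. LCOR, whose locus also encodes a PRC2 partner, was at -1.07. It counts among the 6, though which product of the locus its probe sets read was not tested. The accessory subunits PHF19, JARID2 and EPOP were at -0.54, -0.46 and -0.44. AEBP2, another accessory subunit, was higher by 0.30 (limma adjusted p = 0.0446). Its 1 tested probe set did not pass where p was adjusted over all probe sets. The falls numbered 3 without probe sets ending in _x_at or _s_at. In that setting EZH2 and JARID2 had no probe set left, and PHF19 did not pass (-0.35, limma adjusted p = 0.263). EZH2, RBBP4 and LCOR passed in all 4 fits with 1 array left out. EPOP passed in none of them (adjusted p 0.06 to 0.136), and PHF19 only without TET1 siRNA replicate 2. JARID2 did not pass without TET1 siRNA replicate 2 (-0.29, adjusted p = 0.137) or control siRNA replicate 1 (-0.35, adjusted p = 0.117). Among other settings, the AEBP2 rise ended with quantile normalization, with median centring and without TET1 siRNA replicate 1 or 2 or control siRNA replicate 2. Whether PRC2 and PRC1 subunits differ in their response was not tested. Of 7 Polycomb targets tested 1 fell and none rose: CDKN2A, a cell cycle inhibitor locus long known as a target of BMI1, had a log2 difference of -0.55 (adjusted p = 0.0146), which did not pass without TET1 siRNA replicate 1 or control siRNA replicate 1. CDKN2B, its neighbour, was at -0.05 and did not pass.

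**Figure D4:**
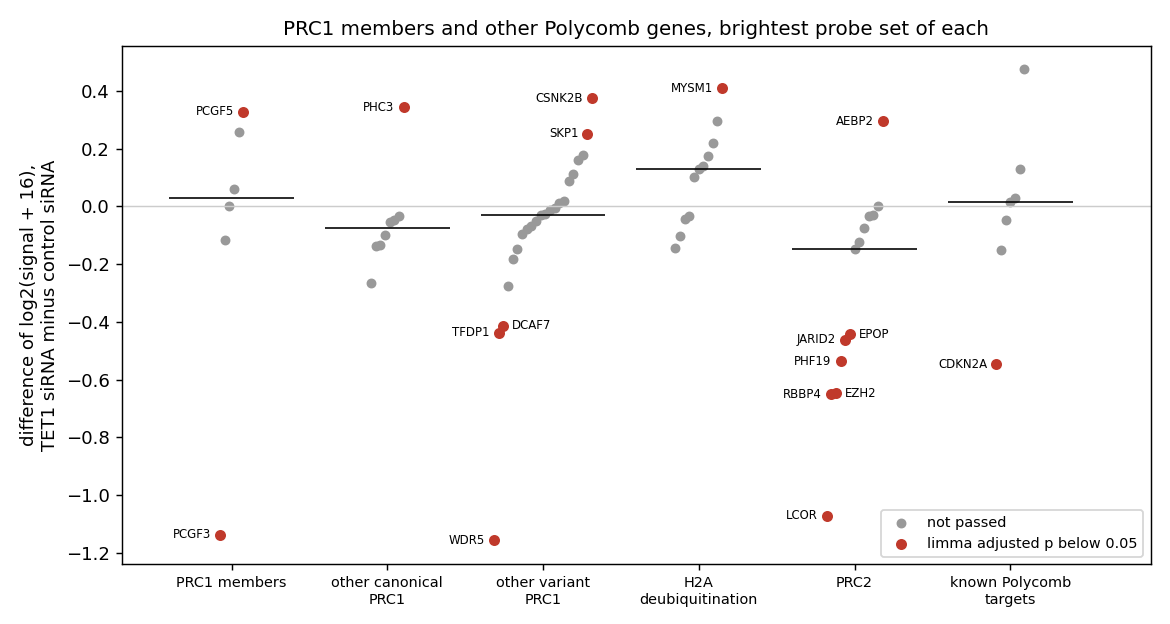
Difference of log2(signal + 16), TET1 siRNA minus control siRNA, for the brightest probe set of each tested gene in 6 groups of Polycomb genes. Each point is a gene, red with a name where limma's adjusted p is below 0.05, and black lines are medians. The medians lie between -0.15 (PRC2) and 0.13 (H2A deubiquitination), and the lowest single values are those of WDR5 (-1.16) and PCGF3 (-1.14).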

How the data were processed

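RNA of HCT116 cells was hybridised to 1 Affymetrix array per sample, from oligo(dT)-primed cDNA per the labels' protocols, so signals come mainly from transcript 3' ends. The deposited table holds 1 linear intensity for each probe set, already scaled by the authors, since all arrays share 1 trimmed mean. How background was corrected, and with which software, is not stated in the labels; dim probe sets depend on it most.

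The values were used as log2(signal + 16), which understates changes of dim probe sets. Of 54675 probe sets, 62 controls were left out. Names came from the platform annotation, updated through RefSeq (GRCh38.p14, 41037 probe sets matched). Probe sets with a mean log2 value above the median of all were tested, 27306 in number. Limma 3.58.1 in R 4.3.3 (lmFit, eBayes with a variance trend, two-sided, Benjamini-Hochberg, threshold 0.05) compared TET1 siRNA with control siRNA across all probe sets, and again across 12389 genes by their brightest probe set. The prior adds 8.73 degrees of freedom to the 2 residual ones, so each p rests on shared variance. In data simulated for the 27306 probe sets, limma recovered 46% of 50 lowered by 1 and 14% of 50 lowered by 0.5 (log2). It recovered 54% and 8% of those raised by as much. Far fewer probe sets were changed there than the 2119 higher and 2268 lower called in the data. The adjustment of p is stricter with fewer changes, so these shares may be too low for the data.

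Probe set pairs of a gene were compared with limma on their log2 difference (variance trend on the dimmer one). Members and lists were chosen with earlier results of these data known. Of each list all genes that passed are named, with examples of those that did not, chosen after their values were seen. Alternatives were median centring, quantile normalization, a pseudocount of 1 or 64, no variance trend, no moderation, a replicate block, leaving out each array, other filters and thresholds, omission of _x_at and _s_at probe sets, and the mean of a gene's probe sets. Same-numbered arrays did not deviate together (r = 0.0066 over probe sets), so the numbers were not taken as pairs. Figures were drawn with matplotlib 3.10.9.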

Additional observations from a re-analysis of the deposited data

How the results depend on the processing

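The counts of PRC1 probe sets (1 higher, 2 lower) and of genes by brightest probe set (1 higher, 1 lower) rest on few calls. For probe sets they were 0 and 1 with no filter, with no variance trend and at adjusted p below 0.01, 0 and 0 with no moderation, and 0 and 2 at 1.5-fold or more. Leaving out 1 array (the single array left in a group then borrows its spread from the other group) gave 0 higher in each of the 4 fits and 1 to 2 lower. For genes they were 0 and 1 at adjusted p below 0.01, at 1.5-fold or more, when a gene's probe sets were averaged and with no variance trend, and 0 and 0 with no moderation. Leaving out 1 array gave 0 to 1 gene higher and 1 lower. With no moderation 1 of 27306 probe sets passed and 5136 had unadjusted p below 0.05. The fall of PCGF3 212753_at passed in 13 of 14 alternatives (log2 differences -1.22 to -0.94, limma adjusted p 7.03e-05 to 0.173), and by the mean of all PCGF3 probe sets the fall was 0.48. PHC2 238131_at passed in 8 of 13 and PCGF5 229194_at in 7 of 14. Values near 0 changed sign: PHC2 200919_at was -0.0203 with quantile normalization and -0.0056 to 0.0084 with 1 array left out. Under the same omissions PCGF6 ran from -0.0757 to 0.1942, PCGF5 235331_x_at from -0.0706 to 0.1839, PCGF3 238084_at from -0.0715 to 0.1937 and the RING1 probe set difference from -0.1244 to 0.0742. The replicate block left 1 PRC1 probe set higher and 2 lower (2151 and 2327 over all probe sets), and with it the probe set differences of PCGF5 229194_at and 227935_s_at (0.84, adjusted p = 0.0216) and of PHC2 (0.74, adjusted p = 0.036) passed. Over all probe sets 2119 rose and 2268 fell, against 1098 and 1204 with no filter, 298 and 541 with no variance trend, and 1257 and 1593 without TET1 siRNA replicate 1. With no variance trend WDR5, EZH2, RBBP4 and LCOR were the only listed genes outside the members to pass, and with no moderation none did. The cause was not tested. Limma moderates from 2 residual degrees of freedom, and signals near the filter carry the least information.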

Other observations

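The probe set annotated to both BMI1 and COMMD3-BMI1 (202265_at) entered no count above. It gave 1163.2 and 1181.8 with TET1 siRNA, against 1447.3 and 1309.5 with control siRNA, or 85.1% of control. Both TET1 siRNA arrays lay below both control arrays, and the log2 difference of -0.23 (95% interval -0.40 to -0.06) did not pass (limma adjusted p = 0.0643). BMI1 and the read-through transcript cannot be told apart with it.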
